A study of Homo sapiens with 8 samples.

Results

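Newly made RNA was compared between 2 groups of U2OS libraries, labelled MYC O/E and Zab, with 2 libraries in each, which are 4 of the 8 libraries of a TT-seq study. U2OS is a human osteosarcoma line, and TT-seq reads RNA that took up 4-thiouridine (4-SU) while it was being made. The libraries were taken by their genotype labels, and the pair of groups was chosen with the MYC and ADAR values of these libraries already known. The first group carries MYC overexpression by its label; the means of overexpression, the clone and the length of 4-SU labelling are not given in the sources used here. The second carries Zab, and the labels do not state its construct. The remaining groups are labelled Zab + MYC O/E and WT, with 2 libraries each. In the series design Zab is written Zαβ, which as background is how the domains of ADAR that bind Z-form nucleic acids are usually called; ADAR is an enzyme that edits RNA. Z-DNA, the left-handed double helix, stands in the series title beside MYC and FACT, a chaperone of histones. The comparison asks how newly made RNA differed between cells with high and low MYC in which ADAR RNA was low in both.

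MYC is a transcription factor that binds DNA with its partner MAX, most tightly at the sequence CACGTG (the E-box). It is known for raising genes of ribosome production, translation and metabolism, and for lowering genes of adhesion, matrix and cell cycle arrest. In many tumours its level is raised by gene amplification or rearrangement.

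The labels were checked against MYC and ADAR first. The unit used throughout is CPM, each deposited value as a share of its library total after TMM scaling, and log2 changes are of CPM + 1, given as MYC O/E over Zab with their standard error. MYC had 6578 and 6606 CPM in the libraries labelled MYC O/E, against 917 and 1016 CPM in those labelled Zab. The level was 6.82-fold higher in the MYC O/E libraries, a log2 change of 2.77 ± 0.041, which is a description since the groups were chosen with it known. MYC had 752 and 772 CPM in the libraries labelled Zab + MYC O/E and 776 and 752 CPM in those labelled WT, so the label MYC O/E in the combined group was not matched by a high MYC level. The transcript counted for MYC (hg19 chromosome 8, plus strand) ran over 128748477 to 128755197 in replicate 1 of MYC O/E. In replicate 1 of Zab it ran over 128747680 to 128755197, so the MYC fold sets partly different exons side by side. ADAR had 445 and 464 CPM in the libraries labelled MYC O/E, against 519 and 567 CPM in those labelled Zab, a log2 change of -0.25 ± 0.030 that turned to 0.85 on the scale of the deposited values. Its counted transcript (hg19 chromosome 1, minus strand) also differed, with 154554534 to 154580662 in replicate 1 of MYC O/E and 154554534 to 154600447 in replicate 1 of Zab. The sign of this small ADAR difference is therefore uncertain. In the libraries labelled Zab + MYC O/E and WT, ADAR had 32282 and 32341 CPM and 33914 and 33898 CPM, far above both groups compared here. The group names below therefore stand for the labels only, and every direction drawn from them rests on those labels. WT values are given by label too, from libraries with high ADAR. Those libraries lay close to the ones labelled Zab + MYC O/E. Over genes with at least 20 reads in a pair, the chi-square of reads per gene was 2.7 to 2.8 between these groups. It was 2.05 between the WT libraries, and 25.5 to 39.3 between WT libraries and those labelled MYC O/E or Zab.

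**Figure D1:**
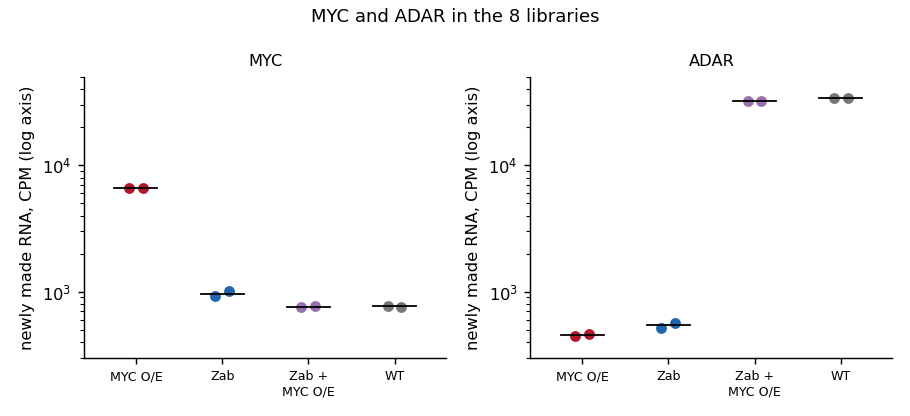
Newly made RNA of MYC (left) and ADAR (right), in CPM on a log axis, for the 8 libraries in 4 labelled groups; points are libraries and black lines are means of 2. The MYC O/E libraries hold the high MYC values, at 6578 and 6606 CPM, and share with the Zab libraries an ADAR level far below that of the other 4 libraries.

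Depth was unequal. The MYC O/E libraries held 3882696 and 4072059 recovered reads over coding exons, and the Zab libraries 1839960 and 2097530. Coding reads per 100 sequenced tags were 13.6 and 13.8 in the MYC O/E libraries and 6.44 and 6.66 in the Zab libraries, against 13.1 to 13.6 in the other 4 libraries. The part of this difference in the results below was not tested. Whether the 2 libraries of a group came from separate cultures is not stated, so the p-values rest on a spread that may be only technical.

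Of 11985 genes tested, 6768 (56.5%) were called at an adjusted p under 0.05 (limma, Benjamini-Hochberg). They were 3669 higher (30.6%) and 3099 lower (25.9%) in the libraries labelled MYC O/E. At least 2-fold changes were 1752 higher (14.6%) and 1360 lower (11.3%), and at least 4-fold changes 311 (2.59%) and 283 (2.36%). In bulk RNA, more RNA made per cell and more cells that make it cannot be told apart. The median gene moved by 0.08, with an interquartile range from -0.50 to 0.67. On the scale of the deposited values, 9003 genes were higher and 598 lower and the median gene was higher by 1.08. Each library's deposited values carry 1 factor of unstated basis. The submitters' processing notes list the fly build dm6 beside hg19, and no source used here says whether that factor rests on fly RNA. Directions below are on the TMM scale, so they are relative to the other genes, and a list's median on the deposited scale is given where its sign turns. With so many genes called, each list is read against the shares of all genes, 30.6% higher and 25.9% lower.

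**Figure D2:**
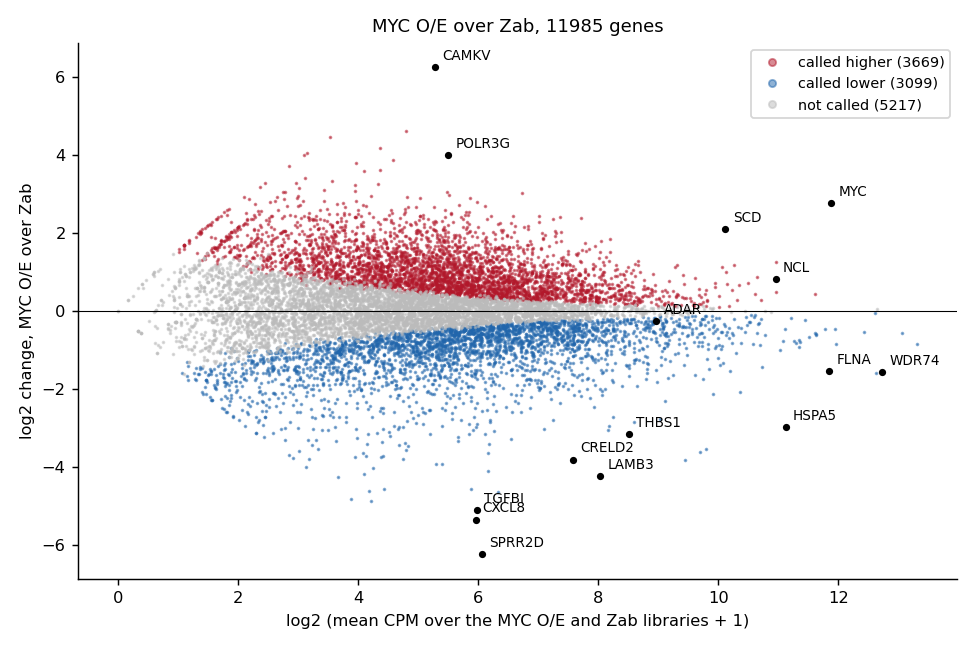
Log2 change (MYC O/E over Zab, vertical) against the log2 mean CPM + 1 over both groups (horizontal), 1 point per gene tested, coloured by call at an adjusted p under 0.05. Black points name genes of the text: MYC, SCD and CAMKV lie among the rises and HSPA5, CRELD2, CXCL8 and SPRR2D among the falls.

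The list of the MYC network holds MYC itself, whose values were known when the groups were chosen, beside its partners and rivals. Of 22 tested network genes 13 were higher, MYC among them, and 5 lower. Their median was 0.34, which came to 0.09 once the trend with gene length was removed. MAX, the partner of MYC, had 229 and 240.1 CPM in MYC O/E, against 141 and 153 CPM in Zab, a change of 0.67 ± 0.094 (adjusted p = 9.32e-07). The antagonists of the MXD family, which compete for MAX, did not move together. MXD1 had 1.03 and 3.71 CPM in MYC O/E, against 18.9 and 18.3 CPM in Zab, a change of -2.66 ± 0.37, and MXD4 had 9.04 and 9.40 CPM in MYC O/E, against 30.1 and 35.6 CPM in Zab, a change of -1.72 ± 0.24. MXI1 was higher at 58.6 and 43.3 CPM in MYC O/E, against 20.04 and 17.8 CPM in Zab, and MNT, another repressor partner of MAX, had 66.9 and 74.2 CPM in MYC O/E, against 40.7 and 48.2 CPM in Zab. MXD3, at 12.1 and 10.6 CPM in MYC O/E, against 11.2 and 16.2 CPM in Zab, was not called (adjusted p = 0.584). SKP2, a ubiquitin ligase subunit that acts on MYC, was 3.46-fold higher at 183 and 173 CPM in MYC O/E, against 60.1 and 42.9 CPM in Zab. Among cofactors, BPTF (1.29), MGA (0.95) and TRRAP (0.25) were higher on the log2 scale, RUVBL2 (-0.68) was lower, and WDR5 and RUVBL1 were not called at 0.03 and 0.06. MYCL, a paralogue of MYC, had 16.5 and 14.6 CPM in MYC O/E, against 4.72 and 10.5 CPM in Zab, near the call threshold (adjusted p = 0.0416). ZBTB17 (MIZ1), through which MYC lowers some genes, was lower at 36.1 and 35.4 CPM in MYC O/E, against 54.8 and 68.1 CPM in Zab.

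Genes of ribosome production were higher in the libraries labelled MYC O/E. Of 108 tested ribosome biogenesis genes 69 rose (63.9%, against 30.6% of all genes) and 3 fell, with a median of 0.41 against 0.08 over all genes. NCL, the nucleolar protein nucleolin, had 2577 and 2475 CPM in the libraries labelled MYC O/E, against 1385 and 1487 CPM in those labelled Zab, a change of 0.81 ± 0.036 (adjusted p = 8.54e-17). NPM1, nucleophosmin, had 2117 and 2029 CPM in the libraries labelled MYC O/E, against 1096 and 1173 CPM in those labelled Zab, a change of 0.87 ± 0.036 (adjusted p = 1.95e-17). Neither gene's libraries overlapped between the groups, which held upward for 41.4% of all genes tested and downward for 35.1%. The plot of 12 genes by library shows that NCL in the Zab libraries lay near its WT level (1473 and 1447 CPM) while NPM1 lay below it (1794 and 1822 CPM). ESF1 (2.47 ± 0.27), KRR1 (2.23 ± 0.28), NOC3L (1.80 ± 0.17) and UTP23 (1.72 ± 0.24), all factors of pre-ribosome assembly, were the 4 members with the largest changes. Of those, KRR1 had 25.8 and 26.2 CPM in MYC O/E, against 3.54 and 6.28 CPM in Zab, and NOC3L 73.6 and 71.5 CPM in MYC O/E, against 18.9 and 21.5 CPM in Zab. In all 4 the Zab libraries lay further from WT than the MYC O/E libraries. For MYC O/E over WT, ESF1, KRR1, NOC3L and UTP23 changed by 0.66, 0.13, 0.21 and 0.56. For Zab over WT they changed by -1.81, -2.10, -1.59 and -1.16. Over the whole list the medians were 0.45 for MYC O/E over WT and -0.025 for Zab over WT.

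The list of canonical MYC targets was more mixed in direction: 36 of 72 rose and 10 fell, with a median of 0.26. Against the median of all genes the list stood 0.18 higher, and 0.08 higher over the genes whose counted transcript was the same in all 4 libraries. LYAR (1.48 ± 0.13) and NOP58 (1.39 ± 0.13), both nucleolar, and the cap-binding translation factor EIF4E (1.33 ± 0.14) led the rises. For MYC O/E over WT these genes changed by 0.41, 0.15 and 0.41, and for Zab over WT by -1.07, -1.24 and -0.92. WDR74, a ribosome assembly factor, went the other way. It had 3429 and 3444 CPM in the libraries labelled MYC O/E, against 10739 and 9599 CPM in those labelled Zab, a change of -1.56 ± 0.032. In the WT libraries it had 3421 and 3334 CPM. Whether other RNA made within its counted exons added to these reads was not tested. ODC1, the first enzyme of polyamine synthesis and a classical target, had 1355 and 1417 CPM in MYC O/E, against 1153 and 1125 CPM in Zab, a change of 0.28 ± 0.042 (adjusted p = 2.24e-06). CTPS1, which makes CTP, was lower at 232 and 249.5 CPM in MYC O/E, against 582 and 572 CPM in Zab.

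Polymerases I and III, which make ribosomal and transfer RNA, had 15 of 33 genes higher and 3 lower. POLR3G, a subunit of one form of polymerase III, had 85.2 and 83.1 CPM in the libraries labelled MYC O/E, against 5.89 and 3.14 CPM in those labelled Zab, a change of 3.99 ± 0.26 (adjusted p = 3.90e-13). That was an 18.6-fold difference, and the WT libraries lay between the groups at 21.7 and 14.7 CPM. BDP1, a subunit of TFIIIB, was higher at 66.1 and 64.8 CPM in MYC O/E, against 18.3 and 15.2 CPM in Zab, with 69.3 and 56.9 CPM in the WT libraries. Translation factors had 22 of 50 genes higher, led by EIF5B (1.79 ± 0.070) and EIF3J (1.76 ± 0.088), and 10 lower. For MYC O/E over WT, EIF5B and EIF3J changed by 0.21 and 0.65, and for Zab over WT by -1.58 and -1.11. Mitochondrial ribosomal proteins had 43 of 79 higher and 6 lower, with a median of 0.43. Of the cytosolic ribosomal proteins, 21 of 84 genes were higher and 47 lower, with a median of -0.19 that turned to 0.11 without the gene length trend and to 0.92 on the deposited scale. RPLP0 had 1767 and 1831 CPM in MYC O/E, against 3384 and 3461 CPM in Zab, and RPL13A 1168 and 1184 CPM in MYC O/E, against 2044 and 2237 CPM in Zab, and both have processed copies elsewhere that could take some of their reads. Aminoacyl-tRNA synthetases split evenly, with 7 higher and 7 lower of 23.

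The E-box was looked up in RefSeq promoters (GRCh38.p14, 250 bases before to 50 after the gene start), which gave a single window for 6845 of the tested genes. CACGTG, a palindrome and so the same on both strands, stood in 10.7% of these windows. The share was 12.7% among genes that rose and 8.24% among genes that fell. Canonical MYC targets held it in 18 of 42 windows (42.9%) and ribosome biogenesis genes in 32 of 83 (38.6%). Lists with a median below 0 differed. Matrix genes held it in 1 of 33, histone genes in 0 of 43, cytosolic ribosomal proteins in 3 of 57 and NF-kB genes in 1 of 12. Folding genes of the endoplasmic reticulum held it in 4 of 27 (14.8%) and serine and one-carbon genes in 2 of 9, both above the share of all windows. Such a match is a description of the letters and not of binding. The 2 risen genes of those lists with the largest change and a CACGTG before the start are shown, the E-box in capitals, as the 250 bases up to the start on the minus strand. They are chr4:75990946-75991195 for SDAD1, a pre-ribosome factor chosen after its values were seen, and chr4:98929134-98929383 for EIF4E.
SDAD1: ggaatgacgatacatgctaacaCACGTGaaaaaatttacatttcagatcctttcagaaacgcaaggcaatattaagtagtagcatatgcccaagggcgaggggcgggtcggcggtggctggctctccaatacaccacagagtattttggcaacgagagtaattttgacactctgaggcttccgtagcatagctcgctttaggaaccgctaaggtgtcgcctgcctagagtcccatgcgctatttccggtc
EIF4E: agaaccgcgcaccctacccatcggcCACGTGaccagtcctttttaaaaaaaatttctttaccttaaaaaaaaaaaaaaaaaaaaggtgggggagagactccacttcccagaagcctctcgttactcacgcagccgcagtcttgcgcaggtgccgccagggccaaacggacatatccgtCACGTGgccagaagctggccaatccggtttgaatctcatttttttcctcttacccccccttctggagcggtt

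SDAD1 had 110.5 and 112 CPM in the libraries labelled MYC O/E, against 47.7 and 39.8 CPM in those labelled Zab, a change of 1.33 ± 0.14. EIF4E, whose window held 2 copies of the E-box, had 118 and 121 CPM in the libraries labelled MYC O/E, against 40.1 and 55.5 CPM in those labelled Zab, a change of 1.33 ± 0.14. In neither gene did the libraries of the groups overlap, which held upward for 41.4% of all genes tested. Both genes were picked for their large change. The WT libraries had 98.8 and 82.2 CPM of EIF4E, between the groups.

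**Figure D3:**
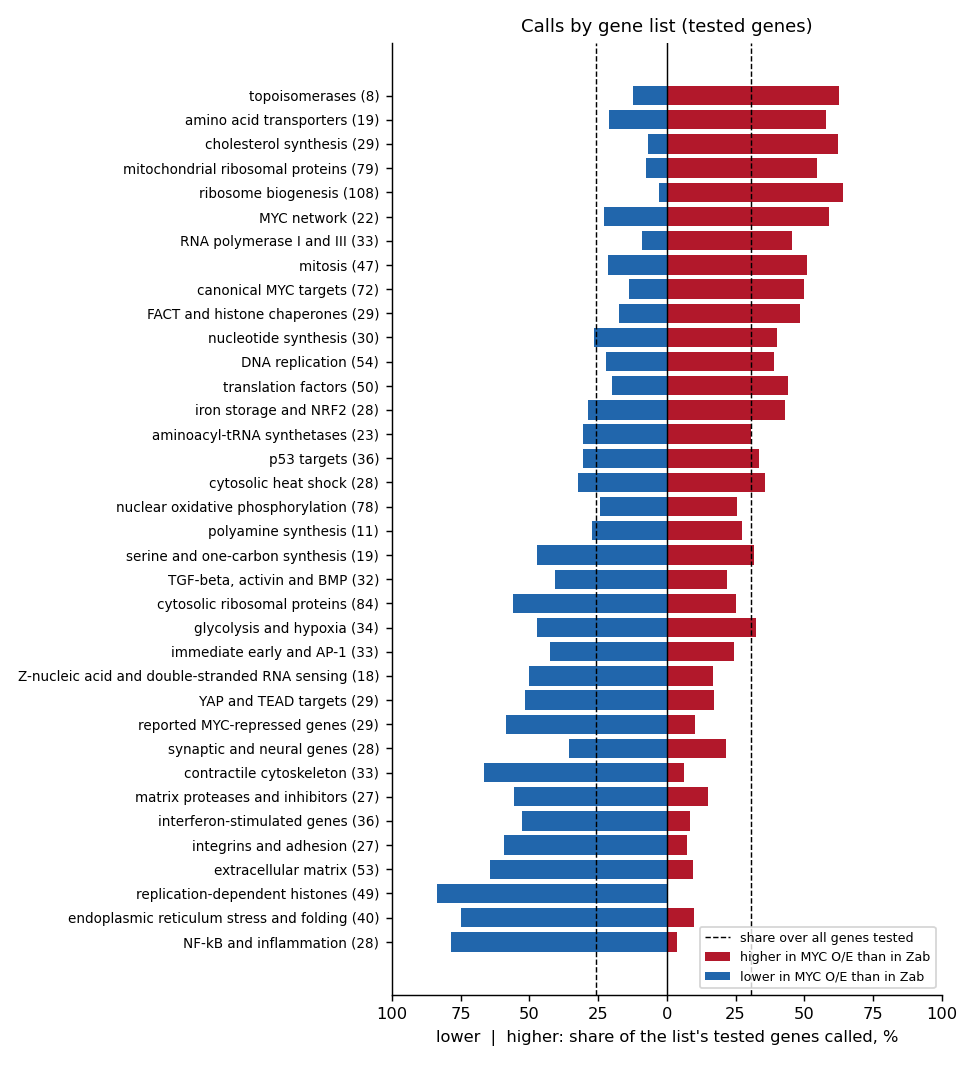
Share of each gene list's tested genes called higher (red, to the right) or lower (blue, to the left) in the libraries labelled MYC O/E than in those labelled Zab, in percent, with the number tested in brackets and lists ordered by their median log2 change. Dashed lines mark the shares over all genes, 30.6% and 25.9%; ribosome biogenesis and cholesterol synthesis lie past the first, and NF-kB, endoplasmic reticulum and histone genes past the second.

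The list of cholesterol synthesis, which also holds the fatty acid genes SCD, FASN and ACACA, was higher in the libraries labelled MYC O/E, with 18 of 29 genes higher and 2 lower and a median of 0.51. SCD, which puts the double bond into fatty acids, had 1784 and 1819.9 CPM in the libraries labelled MYC O/E, against 416 and 425 CPM in those labelled Zab, a change of 2.10 ± 0.053 (adjusted p = 1.95e-22). CYP51A1, a sterol demethylase, had 336 and 323 CPM in MYC O/E, against 110.2 and 116 CPM in Zab, a change of 1.53 ± 0.097. INSIG1 (42.6 and 40.6 CPM in MYC O/E, against 12.97 and 11.5 CPM in Zab), which holds back sterol synthesis, and IDI1 (18.8 and 17.3 CPM in MYC O/E, against 2.36 and 6.28 CPM in Zab), an isoprenoid enzyme, were also higher. For INSIG1 the Zab values lay above the WT values of 2.92 and 5.36 CPM, and for IDI1 below the WT values of 7.13 and 11.1 CPM. The list's median was 0.98 for MYC O/E over WT and 0.48 for Zab over WT; these values share libraries with the main comparison and are not independent of it.

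Amino acid transporters had 11 of 19 genes higher and 4 lower. The glutamate carrier SLC1A3 (1.87 ± 0.29) and the cationic amino acid carrier SLC7A2 (1.60 ± 0.16) rose, and the neutral amino acid carrier SLC1A4 fell (-1.41 ± 0.14). Nucleotide synthesis, with 12 higher and 8 lower of 30, and polyamine synthesis, with 3 and 3 of 11, were mixed. The polyamine median was -0.07, and 1.02 on the deposited scale. PPAT, the first committed enzyme of purine synthesis, had 159.8 and 148 CPM in MYC O/E, against 41.3 and 46.1 CPM in Zab. In the polyamine list AMD1, which makes the aminopropyl donor, rose (1.22 ± 0.14), while the catabolic enzymes SAT1 (-1.56 ± 0.35) and SMOX (-1.45 ± 0.19) fell. Serine and one-carbon synthesis had 6 of 19 higher and 9 lower, a median of -0.16 (0.95 on the deposited scale); PSAT1 (0.83 ± 0.12) and MTHFD2 (0.62 ± 0.066) were among the rises.

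Glycolytic and hypoxia genes fell more often than they rose, 16 against 11 of 34, with a median of -0.28 on the TMM scale and 0.70 on the deposited scale. NDRG1, raised by hypoxia and reported as lowered by MYC, had 62.7 and 69.5 CPM in the libraries labelled MYC O/E, against 515 and 514 CPM in those labelled Zab, a change of -2.94 ± 0.096 (adjusted p = 9.28e-20). CA9, a hypoxia marker, was at 0 in both MYC O/E libraries, against 8.25 and 7.33 CPM in those labelled Zab. In the WT libraries NDRG1 had 118 and 120.5 CPM, so the high values were those of the Zab libraries. The glycolytic enzyme PFKL was lower at 38.98 and 46.7 CPM in MYC O/E, against 111 and 151 CPM in Zab. Iron and NRF2 genes had 12 higher and 8 lower of 28. Nuclear genes of oxidative phosphorylation had 20 higher and 19 lower of 78, near the shares of all genes. TFRC, the transferrin receptor and a reported MYC target, had 231 and 258 CPM in MYC O/E, against 116 and 98.98 CPM in Zab, a change of 1.18 ± 0.11.

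Genes of protein folding in the endoplasmic reticulum were lower in the libraries labelled MYC O/E than in those labelled Zab. Of 40 tested, 30 fell, where 25.9% of all genes fell, and 4 rose, with a median of -1.31 on the TMM scale and -0.21 on the deposited scale. The unfolded protein response raises such chaperones through the transcription factors ATF6 and XBP1, which act with NF-Y at the ER stress response element. HSPA5, the chaperone BiP (hg19 chromosome 9, 127997132 to 128003622, minus strand), had 498 and 508 CPM in the libraries labelled MYC O/E, against 3979 and 3934 CPM in those labelled Zab. It was 7.86-fold lower in the MYC O/E libraries, a log2 change of -2.97 ± 0.048 (adjusted p = 4.49e-27), and the WT libraries had 336 and 349 CPM. CRELD2, a secreted folding factor, had 20.1 and 29.9 CPM in the libraries labelled MYC O/E, against 368 and 346 CPM in those labelled Zab, a change of -3.81 ± 0.17 (adjusted p = 5.31e-17). In the WT libraries CRELD2 had 29.8 and 26.5 CPM, so for both genes the MYC O/E libraries lay nearer to the WT libraries than the Zab libraries did.

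MANF, an ER protein secreted under stress, was lower at 50.6 and 54.6 CPM in MYC O/E, against 286 and 263 CPM in Zab, a change of -2.36 ± 0.12. PPP1R15A (GADD34), which lifts the translation block of the stress response, was lower at 28.9 and 41.05 CPM in MYC O/E, against 189.8 and 201 CPM in Zab, but unlike HSPA5 it was near the Zab level in the WT libraries, at 142 and 152 CPM. Of the factors themselves, named after their values were seen, XBP1 was lower (-0.57 ± 0.11) and ATF6 was not called at -0.19 (adjusted p = 0.278). Over the list the median was -0.17 for MYC O/E over WT and 1.09 for Zab over WT, 2 comparisons that share their WT libraries.

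The ER stress response element, searched on both strands as CCAAT, any 9 bases and CCACG after the gene values had been seen, stood in 12 of the 6845 promoter windows (0.175%). The 12 genes were 9 that fell, 1 that rose and 2 not called, beside 25.9% lower among all genes. The promoters of 4 of them are printed since they are the chaperones and folding factors with large falls, as the 250 bases up to the gene start in GRCh38.p14 with the element in capitals. They are chr22:49918384-49918633 (plus strand) for CRELD2, chr9:125241344-125241593 (minus strand) for HSPA5, chr19:12938359-12938608 (plus strand) for CALR and chr12:103930160-103930409 (plus strand) for HSP90B1.
CRELD2: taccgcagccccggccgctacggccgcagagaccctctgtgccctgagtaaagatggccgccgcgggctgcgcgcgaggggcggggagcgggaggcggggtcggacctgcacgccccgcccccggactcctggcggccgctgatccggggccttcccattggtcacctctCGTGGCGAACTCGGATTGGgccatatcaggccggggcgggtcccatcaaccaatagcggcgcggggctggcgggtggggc
HSPA5: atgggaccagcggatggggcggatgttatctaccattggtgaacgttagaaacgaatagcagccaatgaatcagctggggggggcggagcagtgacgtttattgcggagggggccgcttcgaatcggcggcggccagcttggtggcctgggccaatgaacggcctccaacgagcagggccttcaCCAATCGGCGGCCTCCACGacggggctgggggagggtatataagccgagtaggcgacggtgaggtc
CALR: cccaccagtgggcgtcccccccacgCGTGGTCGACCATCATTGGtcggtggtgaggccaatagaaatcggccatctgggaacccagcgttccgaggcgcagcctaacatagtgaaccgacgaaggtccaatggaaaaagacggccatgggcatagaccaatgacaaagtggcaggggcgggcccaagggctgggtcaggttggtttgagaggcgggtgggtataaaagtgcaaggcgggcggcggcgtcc
HSP90B1: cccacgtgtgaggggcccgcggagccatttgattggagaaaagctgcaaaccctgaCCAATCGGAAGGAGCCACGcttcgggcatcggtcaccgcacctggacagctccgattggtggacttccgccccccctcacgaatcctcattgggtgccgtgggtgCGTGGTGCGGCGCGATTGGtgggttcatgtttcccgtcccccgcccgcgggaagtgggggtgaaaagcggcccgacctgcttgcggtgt

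CALR, the lectin chaperone calreticulin, had 503 and 509 CPM in the libraries labelled MYC O/E, against 2058 and 2199.6 CPM in those labelled Zab, a change of -2.07 ± 0.046. HSP90B1, the chaperone GRP94, whose promoter held the element on each strand, had 291 and 297 CPM in the libraries labelled MYC O/E, against 887 and 941 CPM in those labelled Zab, a change of -1.63 ± 0.065. Both were named after their values were seen, as were the remaining genes with the element. Of these, FICD, an enzyme that modifies HSPA5, had 0.516 and 2.47 CPM in MYC O/E, against 12.97 and 12.6 CPM in Zab, TMEM120A 14.97 and 16.1 CPM in MYC O/E, against 63.1 and 36.1 CPM in Zab, and ALG12, an ER mannosyltransferase, 22.7 and 22.7 CPM in MYC O/E, against 42.4 and 49.8 CPM in Zab. TRIM5 (-0.72) and SERP1 (-0.29) were lower by less than 1 on the log2 scale. ERO1B (-0.08, adjusted p = 0.906) and ZNF17 (0.37, adjusted p = 0.425) were not called, and EIF2A was higher (1.05 ± 0.17). Heat shock proteins of the cytosol were mixed, with 10 higher and 9 lower of 28: HSPE1, a mitochondrial co-chaperone kept in this list, rose (1.26 ± 0.093) and the small heat shock protein CRYAB fell (-1.25 ± 0.18).

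**Figure D4:**
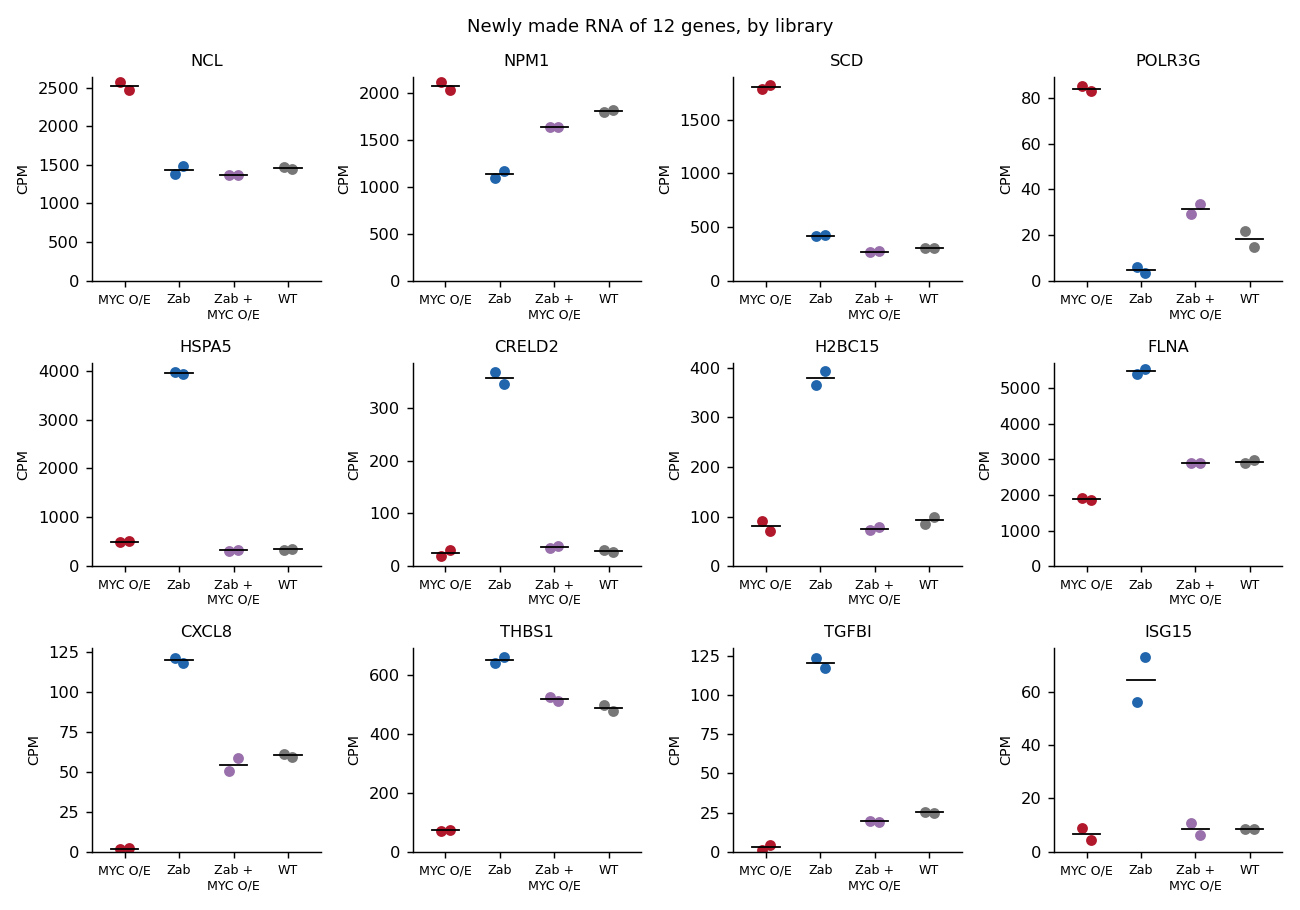
Newly made RNA of 12 genes in CPM (vertical, from 0) by labelled group, MYC O/E first, then Zab, Zab + MYC O/E and WT; points are libraries and lines are means of 2. NCL and SCD are high in the MYC O/E libraries, THBS1 and CXCL8 are low in the MYC O/E libraries, and HSPA5, CRELD2, H2BC15, FLNA, TGFBI and ISG15 are high in the Zab libraries.

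Replication-dependent histones were lower as a group: 41 of 49 fell and 0 rose, with a median of -0.86. These genes are short, and the median shrank to -0.25 once the gene length trend was removed and stood at 0.22 on the deposited scale. H2BC15 had 90.6 and 71.2 CPM in the libraries labelled MYC O/E, against 365 and 394 CPM in those labelled Zab, a change of -2.23 ± 0.12 (adjusted p = 2.53e-15). H4C9 had 35.1 and 35.6 CPM in MYC O/E, against 159 and 161 CPM in Zab, a change of -2.15 ± 0.15. Over the list, MYC O/E over WT had a median of 0.61 and Zab over WT one of 1.48. Reads of near-identical histone copies could be split between genes, so single histone genes are uncertain.

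FACT, the histone chaperone of the series title, is a pair of subunits, of which only SUPT16H was called. SUPT16H had 291 and 307 CPM in the libraries labelled MYC O/E, against 144 and 165 CPM in those labelled Zab, a change of 0.95 ± 0.080 (adjusted p = 6.33e-11). SSRP1 had 718 and 696 CPM in the libraries labelled MYC O/E, against 713 and 725 CPM in those labelled Zab, a change of -0.02 ± 0.050 that was not called (adjusted p = 0.696). The SUPT16H libraries did not overlap between the groups and the SSRP1 libraries did; the WT libraries had 265 and 279 CPM of SUPT16H and 559 and 526 CPM of SSRP1. Of 29 tested FACT and histone chaperone genes 14 rose and 5 fell. DEK (1.90 ± 0.14), ATRX (1.69 ± 0.16), NAP1L1 (0.94 ± 0.060), SET (0.93 ± 0.054) and RBBP4 (0.85 ± 0.11) were higher. In that order, they changed by 0.38, 0.03, -0.26, 0.74 and 0.58 for MYC O/E over WT. For Zab over WT the changes were -1.52, -1.67, -1.20, -0.19 and -0.26. ASF1B, which hands histones H3 and H4 to assembly factors, was lower at 16.5 and 15.8 CPM in MYC O/E, against 62.5 and 63.4 CPM in Zab, as were HJURP (-0.63), DAXX (-0.51) and SUPT6H (-0.28). The subunits of CAF-1, CHAF1A (-0.03) and CHAF1B (0.03), and NASP (0.11) were not called. Topoisomerases relieve the twist of transcribed DNA. Their list, which also holds the repair enzyme TDP2 among its rises, had 5 of 8 higher and 1 lower. TOP1 had 246 and 232 CPM in the libraries labelled MYC O/E, against 123 and 116 CPM in those labelled Zab, a change of 0.99 ± 0.080 (adjusted p = 2.85e-11), and TOP2A (0.89 ± 0.062) and TOP2B (1.57 ± 0.12) were also higher. For TOP1 the WT libraries had 260.2 and 247 CPM, level with those labelled MYC O/E. TOP2A had 474 and 464 CPM in WT, against 397 and 406 CPM in MYC O/E. TOP2B had 116 and 133 CPM in WT, against 109 and 118 CPM in MYC O/E.

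Sensors of Z-form and double-stranded nucleic acids had 3 of 18 tested genes higher and 9 lower, with a median of -0.31 on the TMM scale and 0.75 on the deposited scale. ADAR is counted among the 9, though its values were known when the groups were chosen and the sign of its difference is uncertain. The kinase EIF2AK2 (PKR) had 85.5 and 95.9 CPM in MYC O/E, against 54.8 and 54.5 CPM in Zab, and rose (0.72 ± 0.12), as did DHX9 (0.54 ± 0.060) and STAU1 (0.32 ± 0.068). OAS3, an oligoadenylate synthetase that double-stranded RNA turns on, was lower at 8.003 and 4.45 CPM in MYC O/E, against 46.6 and 49.2 CPM in Zab, a change of -2.80 ± 0.27. Lower values were also called for RIPK1 (-1.14), MAVS (-0.36) and STING1 (-1.20). IFIH1 (-1.04), TLR3 (0.80), CGAS (-0.17), MLKL (0.38) and ADARB1 (0.12) were not called. ZBP1, the sensor of Z-form nucleic acids that triggers cell death, had 0 reads in the 4 libraries.

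Interferon-stimulated genes were lower in the libraries labelled MYC O/E, 19 of 36 against 3 higher, with a median of -0.84 and 0.03 on the deposited scale. ISG15, a ubiquitin-like modifier, had 8.78 and 4.45 CPM in the libraries labelled MYC O/E, against 56.00 and 72.8 CPM in those labelled Zab, a change of -3.15 ± 0.33 (adjusted p = 4.01e-09), and the WT libraries had 8.43 and 8.58 CPM. IFI6 was lower at 6.71 and 2.97 CPM in MYC O/E, against 44.8 and 38.2 CPM in Zab. OASL had 2 recovered reads over the MYC O/E libraries and 124 over the Zab libraries, a ratio in Zab over MYC O/E of 125 with a 95% counting interval from 34.0 to 1046. The list's median was -0.68 for MYC O/E over WT and 0.42 for Zab over WT.

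Targets and members of NF-kB, the transcription factor of inflammation, showed the lowest median of the 36 gene lists, -1.54, with 22 of 28 genes lower and 1 higher. CXCL8, the neutrophil chemokine interleukin 8, had 1.55 and 2.47 CPM in the libraries labelled MYC O/E, against 121 and 118 CPM in those labelled Zab. It was 59.6-fold lower in the MYC O/E libraries, a log2 change of -5.34 ± 0.20 (adjusted p = 2.09e-18), and the WT libraries lay between at 61.2 and 59.4 CPM. The cytokine IL1A had 2 reads over the MYC O/E libraries and 84 over the Zab libraries, a ratio in Zab over MYC O/E of 84.9 with a 95% counting interval from 22.8 to 712. CSF2 and CCL5, both cytokines, had 0 reads in the MYC O/E libraries and 57 and 44 in the Zab libraries, at least 38.4-fold and 29.6-fold lower against a floor of 3 reads over the group. CCL5 was at 0 in the WT libraries as well, and CSF2 was at 1.94 and 0 CPM there. Floors and intervals cover counting error only, and reads mostly came in twos, which makes them too narrow.

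Immediate early genes and members of the AP-1 family, counted as 1 list, had 8 of 33 higher and 14 lower. The median was -0.29, or -0.06 without the gene length trend and 0.68 on the deposited scale. FOSL2 had 71.8 and 78.6 CPM in MYC O/E, against 363 and 321 CPM in Zab, a change of -2.17 ± 0.088, and FOSL1 103 and 84.1 CPM in MYC O/E, against 287 and 291 CPM in Zab, a change of -1.62 ± 0.089. PHLDA1, an early response gene, was lower at 7.74 and 8.41 CPM in MYC O/E, against 88.4 and 92.7 CPM in Zab. Targets of YAP and TEAD, the mechanical and growth arm of Hippo signalling, fell in 15 of 29 cases and rose in 5, with a median of -0.45 and 0.51 on the deposited scale. CCN2, a matricellular protein, had 95.3 and 92.5 CPM in the libraries labelled MYC O/E, against 721 and 637 CPM in those labelled Zab, a change of -2.84 ± 0.062 (adjusted p = 5.08e-24). Its WT values, 699 and 703 CPM, were like those of the Zab libraries, so the MYC O/E libraries stood apart. ANKRD1 was lower at 7.74 and 11.9 CPM in MYC O/E, against 51.3 and 72.3 CPM in Zab, with 178 and 181 CPM in the WT libraries.

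Matrix and adhesion genes were lower in the libraries labelled MYC O/E. Of 53 tested matrix genes 34 fell and 5 rose, with a median of -0.85 and 0.10 on the deposited scale. THBS1, thrombospondin 1 and a reported MYC-repressed gene, had 70.2 and 74.4 CPM in the libraries labelled MYC O/E, against 642 and 662 CPM in those labelled Zab, a change of -3.16 ± 0.065 (adjusted p = 1.39e-24). LAMB3, a laminin chain of basement membrane, had 28.9 and 22.3 CPM in the libraries labelled MYC O/E, against 489 and 501 CPM in those labelled Zab, a change of -4.23 ± 0.096. The WT libraries had 500.03 and 479 CPM of THBS1 and 311 and 339 CPM of LAMB3, closer to the Zab libraries than to the MYC O/E libraries. COL5A1, a fibril collagen, was lower at 4.91 and 2.97 CPM in MYC O/E, against 68.4 and 75.9 CPM in Zab. TGFBI, a matrix protein raised by TGF-beta, had 1.29 and 4.45 CPM in MYC O/E, against 124 and 117 CPM in Zab, with 25.6 and 24.7 CPM in the WT libraries, between the groups.

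Among matrix proteases and their inhibitors 15 of 27 fell and 4 rose, a median of -0.73 (0.33 on the deposited scale). The stromelysin MMP3 had 5.68 and 8.41 CPM in MYC O/E, against 119 and 149.8 CPM in Zab, a change of -4.09 ± 0.14, the gelatinase MMP9 3.61 and 2.97 CPM in MYC O/E, against 53.1 and 38.8 CPM in Zab, and the urokinase PLAU 7.74 and 9.89 CPM in MYC O/E, against 90.8 and 90.1 CPM in Zab. Its receptor PLAUR was lower as well, at 13.4 and 11.6 CPM in MYC O/E, against 93.7 and 106 CPM in Zab. The integrin and adhesion list had 16 of 27 genes lower and 2 higher, a median of -0.85 (0.20 on the deposited scale). ITGA3, a laminin receptor chain, had 138 and 128 CPM in the libraries labelled MYC O/E, against 881 and 928 CPM in those labelled Zab, a change of -2.76 ± 0.064 (adjusted p = 1.56e-23). ITGA4, a fibronectin receptor chain, was one of the genes that rose, at 14.97 and 11.9 CPM in MYC O/E, against 2.95 and 3.14 CPM in Zab.

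The contractile cytoskeleton fell in 22 of 33 genes and rose in 2, a median of -0.69 (0.42 on the deposited scale). FLNA, the actin crosslinker filamin A, had 1908 and 1869.9 CPM in the libraries labelled MYC O/E, against 5406 and 5533 CPM in those labelled Zab, a change of -1.53 ± 0.026 (adjusted p = 1.86e-26). MYL6, a myosin light chain, was lower at 68.2 and 68.7 CPM in MYC O/E, against 262 and 241 CPM in Zab. Of the genes reported as repressed by MYC, 17 of 29 were lower and 3 higher, a median of -0.47 (0.54 on the deposited scale); ID3, an inhibitor of differentiation factors, had 70.99 and 87.04 CPM in MYC O/E, against 301 and 290.1 CPM in Zab. CDKN1A, the cell cycle inhibitor p21 and another reported repressed gene, had 215 and 210.4 CPM in the libraries labelled MYC O/E, against 276 and 297 CPM in those labelled Zab, a change of -0.43 ± 0.067 (adjusted p = 4.22e-06), while the WT libraries had 397 and 393 CPM. TGF-beta, activin and BMP genes had 7 of 32 higher and 13 lower, a median of -0.18 (0.87 on the deposited scale): PMEPA1 (-2.79 ± 0.11) and NOG (-2.21 ± 0.19) fell, and TGFB3 (2.48 ± 0.35) and TGFBR3 (2.02 ± 0.40) rose.

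Genes of cell division were counted in a pair of lists. Mitosis had 24 of 47 higher and 10 lower, and against the median of all genes it stood 0.19 higher, or 0.09 higher over genes counted on the same transcript in all 4 libraries. ASPM, a spindle pole protein, had 84.4 and 71.7 CPM in MYC O/E, against 4.72 and 16.8 CPM in Zab, a change of 2.97 ± 0.28, and the motor protein CENPE had 38.5 and 37.3 CPM in MYC O/E, against 6.48 and 6.81 CPM in Zab. CENPE was not counted on the same transcript in all 4 libraries. It had 17.5 and 20.4 CPM in the WT libraries and 76.3 and 68.8 CPM in those labelled Zab + MYC O/E, so its fold is uncertain. DNA replication had 21 higher and 12 lower of 54, and its median relative to all genes turned to -0.050 over genes counted on the same transcript. DBF4, the partner that turns on the replication kinase CDC7, had 118 and 118 CPM in the libraries labelled MYC O/E, against 22.99 and 13.1 CPM in those labelled Zab, a change of 2.70 ± 0.18 (adjusted p = 3.76e-13), and CDC7 itself was higher at 25.6 and 24.5 CPM in MYC O/E, against 3.54 and 4.19 CPM in Zab. In the WT libraries DBF4 had 85.2 and 90.5 CPM, nearer to the MYC O/E libraries than to the Zab libraries.

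Targets of p53 split, with 12 higher and 11 lower of 36. MDM2, which marks p53 for breakdown, had 211 and 214 CPM in the libraries labelled MYC O/E, against 50.1 and 64.9 CPM in those labelled Zab, a change of 1.88 ± 0.10 (adjusted p = 5.71e-15), and TP53I3 was lower at 21.2 and 22.7 CPM in MYC O/E, against 66.6 and 72.3 CPM in Zab. For MDM2 the WT libraries had 257 and 233 CPM, above both groups. Medians of the list were -0.56 for MYC O/E over WT and -0.53 for Zab over WT.

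The 12 largest rises among well-measured genes without overlap were led by CAMKV, a pseudokinase of neurons, with 72.3 and 79.1 CPM in the libraries labelled MYC O/E, against 0 and 0 CPM in those labelled Zab. It had 600 recovered reads in the MYC O/E libraries and 0 in the Zab libraries, at least 99.0-fold higher, and 1.30 and 1.43 CPM in the WT libraries. OPRL1, the nociceptin receptor (at least 27.7-fold), CR2, the complement receptor of B cells (at least 20.6-fold), the zinc finger gene ZNF33A (at least 19.8-fold) and the ephrin receptor EPHA8 (at least 16.2-fold) were also at 0 reads in the Zab libraries. ZNF33A differed from the others in that the WT libraries held 6.48 and 14.7 CPM. PDE1B, a calcium-dependent phosphodiesterase, had 32.5 and 43.5 CPM in MYC O/E, against 1.18 and 1.05 CPM in Zab, and SLCO5A1, a transporter-family gene, 30.5 and 24.7 CPM in MYC O/E, against 0 and 3.14 CPM in Zab. CDKL1 (4.62 ± 0.45), PUS7L (3.87 ± 0.32), PDZRN3 (3.62 ± 0.46) and IGFBPL1 (3.59 ± 0.54) and POLR3G complete the 12. All of them but IGFBPL1 were counted on transcripts that were not the same in all 4 libraries, as were 8031 of the 19414 genes listed. Genes described above with the same limit include MAX, MXD1, MXI1, LYAR, ESF1, EIF4E, INSIG1, IDI1, SLC1A3, SLC7A2, AMD1, TFRC, CRELD2, ATRX, TOP2B, FOSL1, COL5A1, CDC7, CENPE and MDM2. Their folds may set partly different exons side by side.

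The 12 largest falls were led by SPRR2D, a small proline-rich protein of the skin barrier, with 1.03 and 0.495 CPM in the libraries labelled MYC O/E, against 137 and 124 CPM in those labelled Zab, a change of -6.24 ± 0.47 (adjusted p = 7.30e-12). In the WT libraries it had 0.648 and 0 CPM, so the Zab libraries alone were high among the groups compared here and WT. OSCAR, an osteoclast-associated receptor, had 0 reads in the MYC O/E libraries, at least 66.0-fold lower, with 33.01 and 22.00 CPM in the Zab libraries. SERPINA1, the protease inhibitor alpha-1-antitrypsin, had 6.97 and 3.71 CPM in the libraries labelled MYC O/E, against 133 and 173 CPM in those labelled Zab, a change of -4.64 ± 0.20. IGFBP5 (2.58 and 5.19 CPM in MYC O/E, against 129 and 94.3 CPM in Zab), which binds insulin-like growth factors, ROBO4 (1.03 and 0.495 CPM in MYC O/E, against 43.6 and 36.7 CPM in Zab), a guidance receptor known from endothelium, LAT (1.03 and 0 CPM in MYC O/E, against 35.96 and 31.4 CPM in Zab), an adaptor of T-cell signalling, and the acute-phase gene SAA1 (0 and 1.98 CPM in MYC O/E, against 23.6 and 38.8 CPM in Zab) were lower too. CXCL8, TGFBI, OASL, IL1A and LAMB3, described above, are the others of the 12. Of these falls, OASL, OSCAR, SERPINA1, LAT, IL1A, LAMB3 and SAA1 were counted on transcripts that were not the same in all 4 libraries.

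The change differed with where genes lie and how long they are. Genes spanning under 5 kb had a median of -0.32, with 11.5% higher and 40.9% lower, and genes of 50 to 100 kb one of 0.32, with 39.9% higher and 18.9% lower. The median for Zab over WT ran the other way, 0.35 under 5 kb and -0.28 at 50 to 100 kb, and that for MYC O/E over WT was 0.03 and -0.0045. The trend did not go on to the longest genes. Over 200 kb the median for MYC O/E over Zab was 0.19, with 255 of 851 genes higher and 165 lower, and MYC O/E over WT stood at -0.28 and Zab over WT at -0.44. Genes with 0 to 9 other coding genes starting within 1 Mb on each side had a median of 0.43, and genes with 80 or more had one of -0.43. After the gene length trend was removed these medians were 0.30 and -0.37. Across chromosomes, chromosome 13 had a median of 0.82, with 110 of 194 genes higher and 14 lower, and chromosome 19 one of -0.27, with 134 of 845 higher and 337 lower. Promoter windows of genes that fell had a median GC content of 67.7%, against 65.7% for genes that rose. Gene span, local gene number and GC content move together along chromosomes, and their separate parts in the result were not tested.

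**Figure D5:**
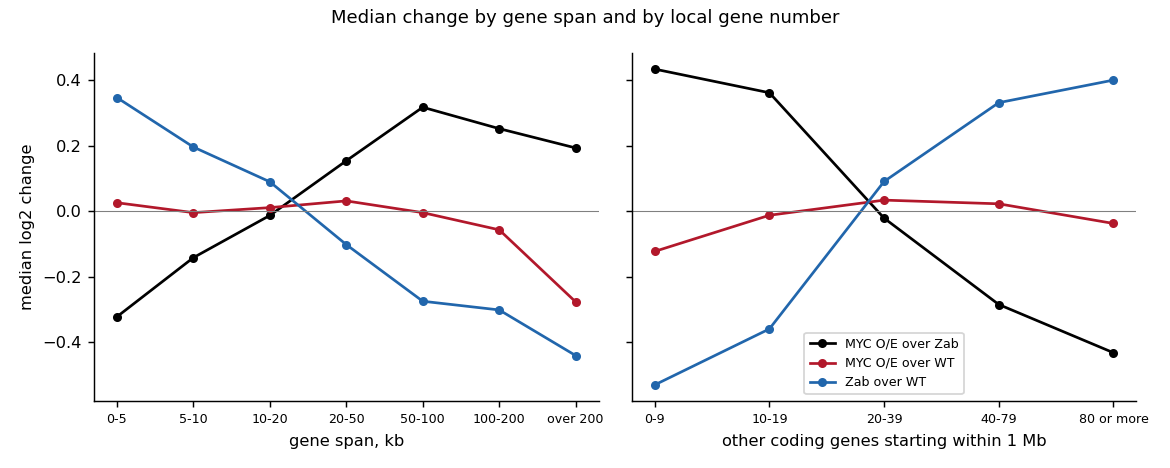
Median log2 change by gene span in kb (left) and by the number of other coding genes starting within 1 Mb on each side (right), for MYC O/E over Zab (black), MYC O/E over WT (red) and Zab over WT (blue); the 3 comparisons share libraries. MYC O/E over Zab runs from 0.43 in the gene-poor class to -0.43 in the gene-rich class, and Zab over WT from -0.53 to 0.40.

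Markers of U2OS and of other cell types were set beside these results. No blood or endothelial marker passed the filter on low reads. Blood markers summed to 1.03 and 1.98 CPM in the MYC O/E libraries and to 0 and 2.09 CPM in the Zab libraries, and endothelial markers to 2.84 and 1.24 CPM in MYC O/E and 3.54 and 3.14 CPM in Zab. Some mesenchymal and skeletal markers were present in both groups. VIM, vimentin, had 1804 and 1829 CPM in MYC O/E, against 2979.8 and 3154 CPM in Zab, and SPARC 329.9 and 337 CPM in MYC O/E, against 506 and 545 CPM in Zab. RUNX2, a bone regulator, was higher at 30.98 and 31.9 CPM in MYC O/E, against 4.72 and 2.09 CPM in Zab. TWIST1, another marker of that list, was at 0 reads in all 4 libraries, and COL1A2 (0 to 1.18 CPM) and ALPL (0.516 to 2.36 CPM) were near 0. Of the neural markers, NEFL had 131 and 127 CPM in MYC O/E, against 78.4 and 81.7 CPM in Zab, and the others had at most 8.25 CPM. The muscle marker TNNT1 had 58.1 and 46.5 CPM in MYC O/E, against 189.8 and 225.2 CPM in Zab, and the other muscle markers were at 0 reads. Epithelial markers summed to 867 and 908 CPM in MYC O/E and to 2344 and 2484 CPM in Zab, nearly all from the keratins KRT8 (263 and 271 CPM in MYC O/E, against 802 and 950.02 CPM in Zab) and KRT18 (599 and 629 CPM in MYC O/E, against 1539 and 1528 CPM in Zab). CDH1 and KRT19, which define epithelium, had 0 to 0.989 CPM in the MYC O/E libraries and 0 reads in the Zab libraries. EPCAM, another gene that defines epithelium, was higher where the keratins were lower: it had 4.13 and 4.45 CPM in the MYC O/E libraries (16 and 18 reads) and 0 reads in the Zab libraries, at least 5.61-fold higher (adjusted p = 6.26e-04). Synaptic and neural genes had 6 of 28 higher and 10 lower, a median of -0.51 (0.47 on the deposited scale); SYT7, a synaptotagmin, was higher at 37.4 and 37.8 CPM in MYC O/E, against 7.66 and 6.28 CPM in Zab.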

How the data were processed

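TT-seq libraries of U2OS cells were grouped by genotype label. Per the submitters' processing notes, the builds were hg19 and dm6 and the tools STAR, bedtools 2.29.2, SAMtools 1.11 and Trim Galore 0.6.6, without stated roles. Per the file headers, the authors counted tags over exons of hg19 RefSeq coding genes on the opposite strand with HOMER, keeping 1 transcript per symbol, chosen in each library separately. The deposited values are a signal: whole reads times 1 factor for each library, and what that factor rests on is not stated per the file headers. Dividing by the smallest step gave whole reads for 100% of values within 0.02 reads. Even numbers made up 77.2% to 82.7% of the values between 1 and 20 reads.

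The deposited signal was scaled by TMM (edgeR 4.0.16) and tested on log2(CPM + 1) with limma 3.58.1 with a variance trend in R 4.3.3. All 8 libraries entered 1 fit with a term per group and 4 residual degrees of freedom. Genes were kept by filterByExpr on recovered reads, with a minimum of 10. Calls were made below an adjusted p of 0.05 (Benjamini-Hochberg over 11985 genes), and adjusted p-values in the text come from this fit unless named otherwise. Folds against a group at 0 reads are bounds that take 3 reads for that group, and ratios to a group with 1 to 3 reads carry an exact 95% counting interval. The method was tested on simulated data.

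The libraries and the 42 gene lists (1451 symbols, 1442 in the files, 6 of the lists markers) were chosen with earlier results of these data known, and no set test was run. Named genes are MYC, MAX, ADAR, NCL, NPM1, ODC1, CDKN1A, HSPA5, SUPT16H, SSRP1 and TOP1, the 12 largest rises and 12 largest falls (called, averaging 5 CPM or more, libraries not overlapping), up to 4 called genes per list, and members of the MYC network, sensor and FACT lists, of which some are not reported here. Promoters are RefSeq's for GRCh38.p14, another build than that of the files, and were joined by symbol. Alternatives covered scaling, filters, pseudocount, libraries in the fit, the replicate block, gene length, edgeR and DESeq2 1.42.0 on recovered reads, and each library left out.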

Additional observations from a re-analysis of the deposited data

How the results depend on the processing

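The counts of 3669 genes higher and 3099 lower kept within 1.5 times under library totals, upper-quartile scaling, both filters, the smaller pseudocount, both other choices of libraries, removal of the gene length trend, edgeR and DESeq2. On the deposited scale, which does not centre the libraries, they were 9003 and 598. With at least 2-fold changes they were 1752 and 1360, and over the 7105 genes counted on the same transcript in the 4 libraries, an alternative chosen after seeing the data, 2146 and 2014. Leaving out 1 library gave 2883 to 3594 higher and 2513 to 2997 lower. A group left with 1 library was assumed to vary like the others. Same-numbered libraries did not deviate together (correlations of -0.026 to 0.0099), so no shared effect of the number was seen. That cannot tell whether same-numbered libraries were prepared together. With the replicate block the counts were 3675 and 3096.

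Of 612 list medians, taken relative to that of all genes, 11 turned round. They were aminoacyl-tRNA synthetases (-0.13 without the length trend and -0.041 without Zab replicate 2), cytosolic ribosomal proteins (0.090 without the length trend) and DNA replication (-0.050) and iron and NRF2 genes (-0.11) on the same transcript. With 1 of the other libraries left out, the synthetases stood near 0, at -0.032 to 0.029. Targets of p53 stood at 0.051 without the low-value filter, 0.051 without the length trend and 0.073 on the same transcript, and oxidative phosphorylation at 0.027 on the deposited scale, 0.035 without the filter and 0.14 without the length trend. The cause was not tested.

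On the deposited scale, where the median gene was 1.08 higher, these log2 changes of named genes turned positive: ALG12 0.087, RPLP0 0.18, RPL13A 0.24, ZBTB17 0.32, VIM 0.35, TRIM5 0.36, RUVBL2 0.42, SPARC 0.45, HJURP 0.47, XBP1 0.53, DAXX 0.58, CDKN1A 0.67, MAVS 0.73, MXD3 0.76, SERP1 0.80, SUPT6H 0.82, ADAR 0.85, CGAS 0.87, ATF6 0.90, CHAF1A 1.06 and SSRP1 1.08. Depth limits the Zab side most, since those libraries held the fewest reads.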
